A study of Rattus norvegicus with 3 samples.

Results

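The genes described here carry a cell through DNA synthesis and division. They were 33 genes of replication licensing, nucleotide supply, the cyclins and Cdk1, the mitotic kinases, the spindle checkpoint and the spindle, and each was read from the probe sets annotated with its symbol alone, using the brightest where there were several. Of the 33, 29 were measured among 14506 named genes. Mcm3, Mcm4, Cenpf and Mki67 were not analysed here. Levels came from the soleus, a slow muscle of the calf that holds posture, in rats that were 7 weeks old and of a strain labelled Brown. Group TS was suspended by the tail, which takes the load off the hind limbs, and was irradiated. In group DN the muscle was denervated and the rats were irradiated; the nerve lesion is not described further in the sources used here. Group Ct was irradiated without either procedure. The irradiation ran for 2 weeks to a total of 50 mSv in all 3 groups, and no group without irradiation was analysed, so every difference below lies between irradiated muscles.

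RNA of 6 rats was pooled for each group and hybridised to 1 array per group. There were no replicates, so no difference could be set against a spread between animals, no test was made, and every value describes 3 pools. Values are log2 levels made by the submitters, a difference is the level in one pool minus that in another, and genes were counted at a limit of 1.5-fold (0.585 on the log2 scale). Array medians were 6.35 in TS, 6.33 in DN and 6.32 in Ct. The labelled tissue carried its markers, and all 10 markers of slow fibres lay above the dim limit in each pool.

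In a dividing cell, the Mcm helicase is loaded at replication origins in G1, deoxynucleotides are made for S phase, and cyclin B with Cdk1 then starts mitosis, which the spindle checkpoint holds until every chromosome is attached. E2F factors are known to drive the S phase genes. The mitotic genes are known for later control through CCAAT boxes, bound by NF-Y, and cell cycle homology regions, bound by the DREAM complex and by MuvB with B-Myb and FoxM1. Nuclei inside muscle fibres do not divide, so transcripts of these genes in adult muscle are usually credited to satellite cells and to other mononuclear cells between the fibres. In whole muscle, fewer cycling cells and less of a transcript per cell cannot be told apart.

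Promoter sequences of the members held motifs known from cell cycle genes at a higher share than those of other genes. Sequences upstream of the annotated start were taken from RefSeq (GRCr8) for the 23 measured members found in that table; Rrm2, Ccne2, Ccna2, Aurkb, Ube2c and Tpx2 were not among them. Both strands of the 250 bases before the start were searched for an E2F motif (TTCCCGC, or else TTGGCGC, or else TTCGCGC, or else TTGCCGC), for CCAAT and for the cell cycle homology region written as TTTGAA. Below, capitals mark these motifs in either orientation, in 3 licensing genes with some of the widest differences of the TS pool and in 3 mitotic genes that stood at opposite sides of Ct in the TS and DN pools.
Mcm5, chr19:13488563-13488812, plus strand: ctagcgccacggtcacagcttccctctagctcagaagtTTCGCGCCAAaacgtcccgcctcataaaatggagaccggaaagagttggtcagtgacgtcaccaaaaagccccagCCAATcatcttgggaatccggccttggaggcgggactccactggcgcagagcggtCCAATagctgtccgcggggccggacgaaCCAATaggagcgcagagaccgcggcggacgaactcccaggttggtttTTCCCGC
Mcm6, chr13:42404353-42404602, minus strand: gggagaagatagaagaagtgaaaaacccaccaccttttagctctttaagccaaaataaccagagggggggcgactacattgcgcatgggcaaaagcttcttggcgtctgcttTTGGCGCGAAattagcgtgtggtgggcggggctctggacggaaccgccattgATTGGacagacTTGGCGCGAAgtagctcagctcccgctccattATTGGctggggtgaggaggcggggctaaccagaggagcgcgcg
Mcm2, chr4:122918095-122918344, minus strand: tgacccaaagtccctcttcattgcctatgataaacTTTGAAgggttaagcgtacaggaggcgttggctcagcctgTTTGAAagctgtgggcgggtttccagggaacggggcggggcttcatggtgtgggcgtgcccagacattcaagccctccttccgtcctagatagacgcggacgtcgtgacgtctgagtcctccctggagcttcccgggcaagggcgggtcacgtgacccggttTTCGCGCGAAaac
Ccnb1, chr2:33655226-33655475, minus strand: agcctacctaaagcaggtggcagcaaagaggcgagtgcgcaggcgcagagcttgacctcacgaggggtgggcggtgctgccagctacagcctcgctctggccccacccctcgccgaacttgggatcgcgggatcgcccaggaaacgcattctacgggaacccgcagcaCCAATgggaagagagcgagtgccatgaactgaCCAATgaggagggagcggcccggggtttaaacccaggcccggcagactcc
Cdc20, chr5:137255800-137256049, minus strand: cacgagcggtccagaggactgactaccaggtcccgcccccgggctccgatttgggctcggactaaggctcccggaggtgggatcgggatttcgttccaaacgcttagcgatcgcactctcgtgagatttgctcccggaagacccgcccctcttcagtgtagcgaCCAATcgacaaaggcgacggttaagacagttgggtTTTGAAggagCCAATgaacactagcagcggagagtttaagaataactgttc
Top2a, chr10:84473094-84473343, minus strand: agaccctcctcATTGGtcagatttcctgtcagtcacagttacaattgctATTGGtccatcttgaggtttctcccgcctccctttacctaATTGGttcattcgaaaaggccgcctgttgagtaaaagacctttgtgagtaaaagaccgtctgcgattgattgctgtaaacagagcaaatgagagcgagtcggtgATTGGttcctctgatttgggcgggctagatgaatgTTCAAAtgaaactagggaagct
Mcm5 held 3 E2F and 3 CCAAT matches, Mcm6 held 4 and 2, and Mcm2 held 2 E2F matches and 2 homology regions. E2F matches were counted on each strand, and those of opposite strands can overlap, as in the capital run of Mcm2 that reads TTCGCGCGAA; matches of different motifs did not overlap in these 6 sequences. Ccnb1 held 2 CCAAT boxes, Cdc20 held 2 CCAAT boxes and 1 homology region, and Top2a held 4 and 1, with no E2F match in these 3 windows.

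An E2F motif was found in 7 of the 23 member promoters (30.4%), against 11.0% of the 12518 promoters of named genes. All 4 measured Mcm genes held one, and so did Tyms, Ccnb2 and Cdk1, while 0 of 4 promoters of the kinase group, 0 of 5 of the checkpoint group and 0 of 4 of the spindle group did. CCAAT was found in 16 member promoters (69.6%), against 35.4% of the promoters of named genes. The homology region was found in 8 (34.8%), against 13.8%. CCAAT and the homology region stood together in 7 (30.4%), against 5.19%. None of the motifs was found for 5 members, Tk1, Aurka, Bub1, Bub1b and Mad2l1. These matches describe letters in a fixed window and do not show that a factor binds there.

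In the TS pool the S phase and mitosis genes stood above the Ct pool almost throughout. Of 29 members, 27 read higher in TS, by any amount, and 2 read equal; with each array centred on its own median, which takes 0.12 off every TS minus Ct difference, 24 were higher, and Birc5, Cdca8, Prc1, Tk1 and Aurka were lower. Over all named genes, 45.1% read higher in TS without centring, and centring turns the 35.9% with equal values into lower ones. At least 1.5-fold higher were 9 members (31.0%), against 4.64% of all named genes, and 0 members were at least 1.5-fold lower, against 1.95%. With each array centred, the shares of all named genes were 2.92% higher and 2.83% lower. At least 2-fold higher were 4 members, Mcm5, Mcm6, Rrm2 and Ccnb1, against 1.03% of all named genes. The median member difference was 0.46, whereas the median over all named genes was 0.00. The 9 were Mcm2, Mcm5, Mcm6, Mcm7, Rrm2, Ccne2, Ccnb1, Bub1 and Cdc20, and both readings of each lay above the dim limit of its array, a limit set by the 95th percentile of 53 olfactory receptor genes (5.55 in TS, 5.58 in DN and 5.64 in Ct). Just inside the 1.5-fold limit were Ccne2 (0.64) and Bub1 (0.68), and just outside it were Top2a (0.58), Ttk (0.58) and Aurkb (0.55).

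**Figure D1:**
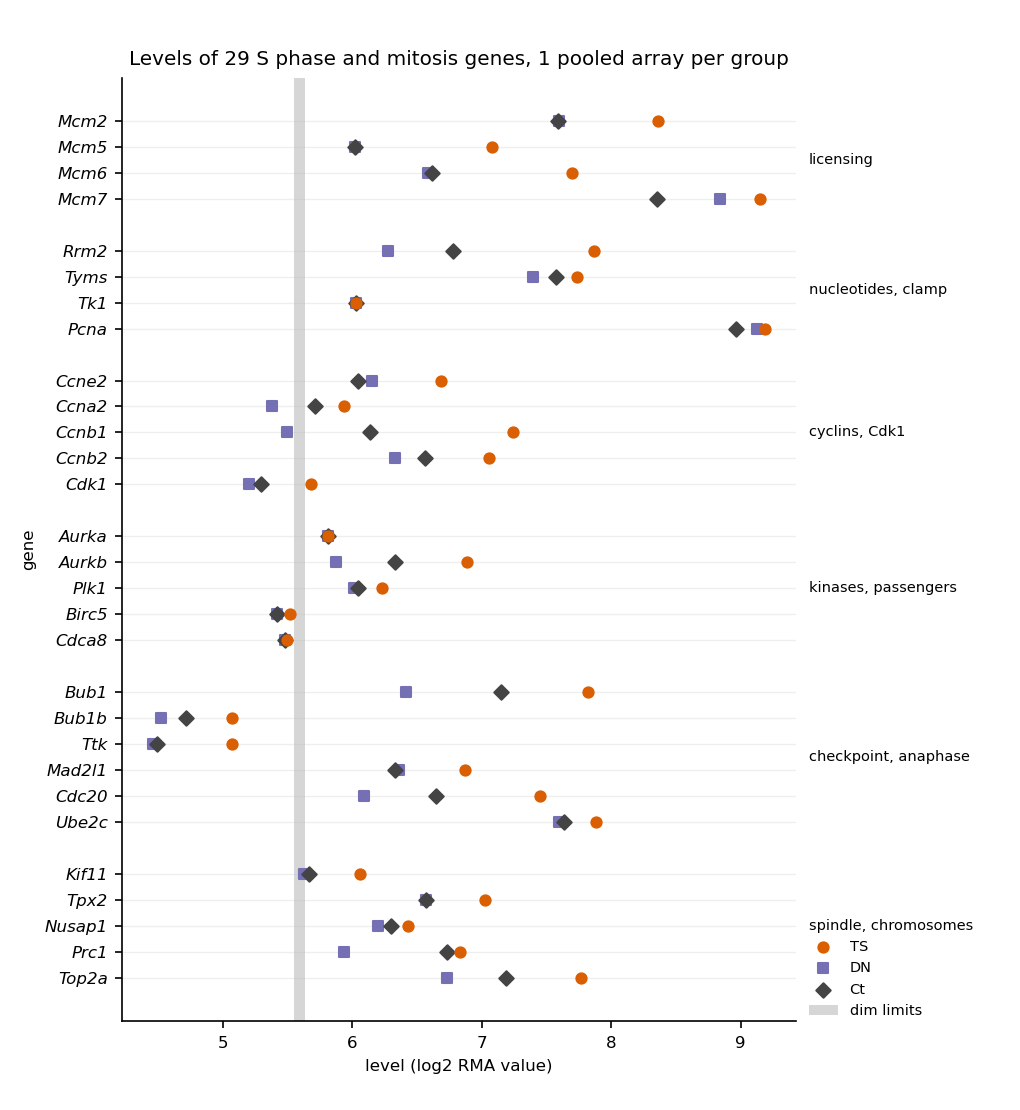
Level of each measured member (log2 RMA value, horizontal axis) in the TS, DN and Ct pools, 1 array each, with genes ordered by role down the page and the grey band spanning the dim limits of the 3 arrays (5.55 to 5.64). The TS point lies farthest right for 27 of 29 genes, an order that Birc5, Cdca8, Prc1 and Pcna lose with each array centred, and Tk1 and Aurka show 1 point because their 3 values are equal.

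In the DN pool these genes did not stand above Ct as a group. No member was at least 1.5-fold higher (0 of 29, against 3.55% of all named genes), and the readings of 3 were at least 1.5-fold lower (10.3%, against 3.91%), namely Ccnb1, Bub1 and Prc1. The DN reading of Ccnb1 was dim and gives only a bound short of the limit. Among members above the dim limit in both pools, 2 of 22 were lower, Bub1 and Prc1, against 5.30% of named genes above it in both. With 32 added on the linear scale, which shrinks differences of dim genes, all 3 fell short of the limit, at -0.41, -0.57 and -0.57. Of the 29, 18 read lower in DN by any amount, against 20.2% of all named genes, 5 read higher, against 24.6%, and 6 were equal, against 55.2%. With each array centred, which takes 0.01 off every DN minus Ct difference, 25 were lower and 4 higher. That small shift turns every equal value into a lower one, for the 6 equal members and for the 55.2% of all named genes alike. The median difference was -0.04. Set directly against TS, the DN pool was at least 1.5-fold lower for 12 members (41.4%, against 4.74%), at least 2-fold lower for 8 (against 1.30%) and at least 1.5-fold higher for 0 (against 2.35%), with a median difference of -0.54. By any amount, 27 members were lower in DN than in TS, against 43.8% of all named genes, or 24 with each array centred. The 43.8% is without centring, which adds 0.11 to every DN minus TS difference and turns the 37.2% of named genes with equal values into higher ones. With each array centred, the shares of all named genes were 3.27% higher and 3.23% lower in DN than in TS. For 10 of the 12, both readings were above the dim limit; the others were Ccnb1, dim in DN, and Ttk, dim in both. The 3 comparisons share arrays, so the counts are not independent of each other. The order TS above Ct above DN was seen in 18 of 29 members and in 7.78% of all named genes. A gene with equal values in Ct and another pool cannot show this order, which holds the share of all named genes down. DN and Ct were equal for 55.2% of them, and TS and Ct for 35.9%, against 6 and 2 members. The order was not recounted with each array centred.

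**Figure D2:**
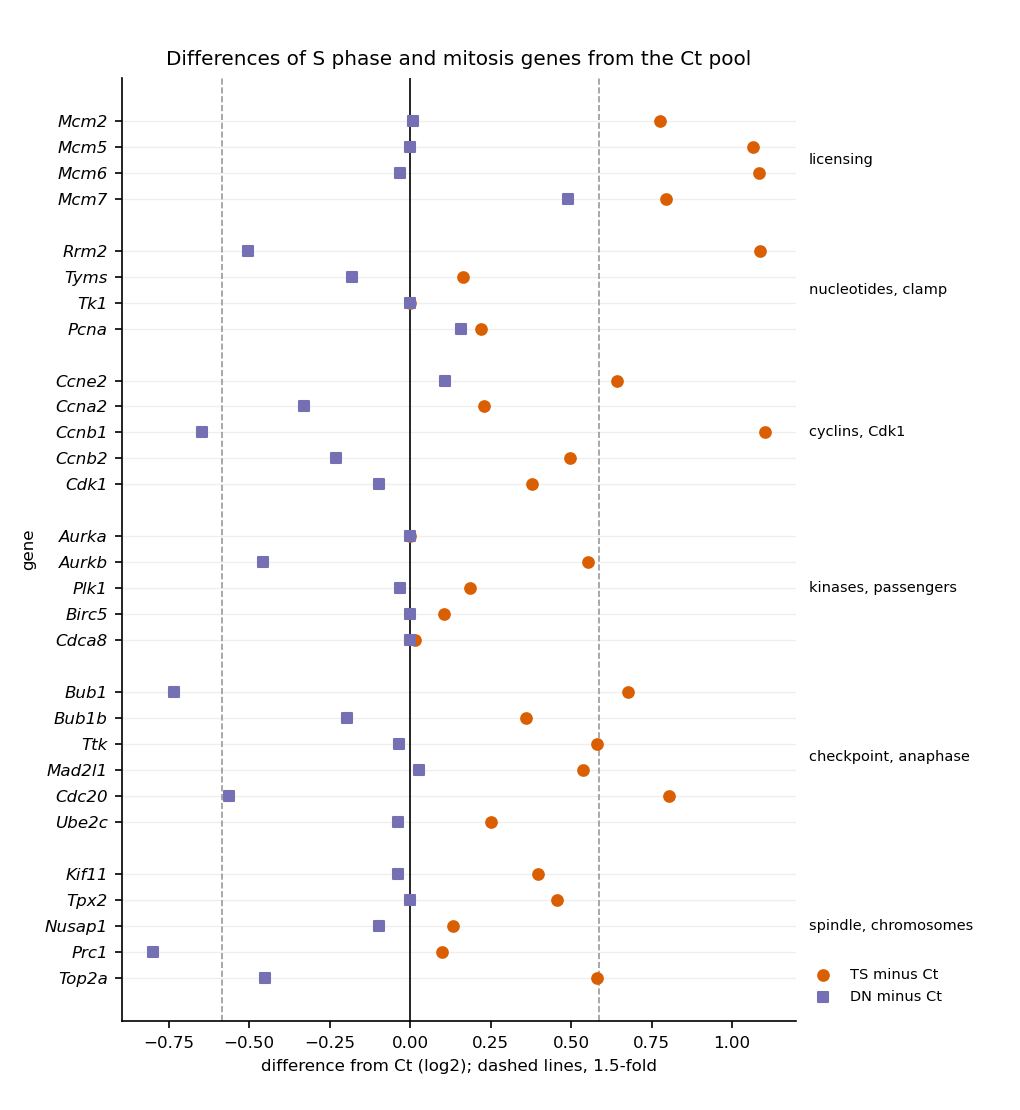
Difference of the TS pool and of the DN pool from the Ct pool for each measured member (log2, horizontal axis), with dashed lines at 1.5-fold; both share the Ct array. TS points reach past the right line for 9 genes (7 with each array centred), DN points reach past the left line for Ccnb1 (from a dim DN reading), Bub1 and Prc1, and for Tk1 and Aurka both differences are 0.

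**Figure D3:**
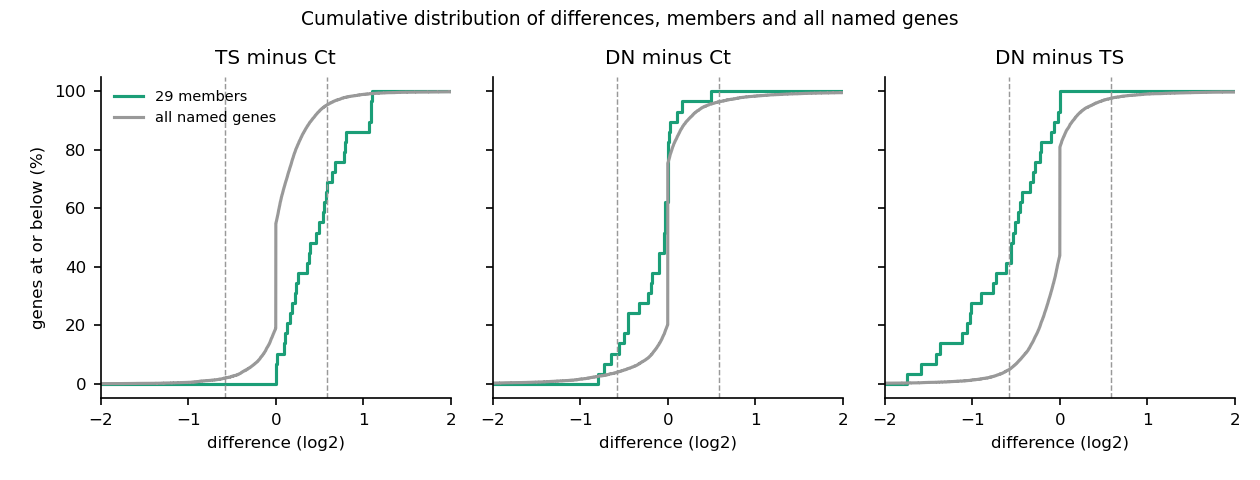
Share of genes (%, vertical axis) with a difference at or below the value on the horizontal axis (log2), for the 29 members and for all 14506 named genes, in each of the 3 comparisons; dashed lines mark 1.5-fold. The member curve lies to the right of all genes for TS minus Ct (medians 0.46 and 0.00), close to 0 for DN minus Ct (median -0.04) and to the left for DN minus TS (median -0.54).

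The licensing genes encode subunits of the Mcm helicase, which unwinds DNA at the fork, and all 4 measured subunits were among the 9 in TS. Mcm5 read 7.08 in TS, against 6.02 in DN and 6.02 in Ct, a difference of 1.07 or 2.09-fold for TS over Ct. Mcm6 read 7.69 in TS, 6.58 in DN and 6.61 in Ct, with TS 2.12-fold above Ct. For both genes the DN and Ct values lay together and TS was apart. The DN and Ct values of Mcm5 were equal to the last digit, which can come from the median polish that summarises the probes of 3 arrays and does not show equal expression. Mcm2 had a similar pattern, at 8.37 in TS, 7.60 in DN and 7.59 in Ct (1.71-fold for TS over Ct). Mcm7 read 9.15 in TS, 8.84 in DN and 8.35 in Ct, which put TS 1.73-fold above Ct and DN in between, 0.49 above Ct. Mcm7 was thus the licensing subunit whose DN level came nearest to that of TS, with a DN minus TS difference of -0.30, whereas DN was 1.70-fold (Mcm2), 2.09-fold (Mcm5) and 2.16-fold (Mcm6) below TS for the others. The group's median difference from Ct was 0.93 in TS and 0.00 in DN.

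Of the 4 genes of nucleotide supply and the replication clamp, Rrm2 alone passed the limit. Rrm2, the S phase subunit of ribonucleotide reductase, read 7.87 in TS, 6.27 in DN and 6.78 in Ct. TS was 2.12-fold above Ct, and DN lay on the other side of Ct at -0.50, 3.01-fold below TS. A further Rrm2 probe set gave the same order, with 7.16 in TS, 5.70 in DN and 6.11 in Ct. Tyms, which makes thymidylate, read 7.74 in TS, 7.39 in DN and 7.57 in Ct, and Pcna, the sliding clamp that also serves DNA repair, read 9.19, 9.13 and 8.97 in the same order of pools. Their TS minus Ct differences were 0.16 and 0.22. Tk1, the thymidine kinase of S phase, read 6.03 in all 3 pools, again equal to the last digit. As a median over the group, TS lay at 0.19 and DN at -0.09 from Ct. In TS this group as a whole thus lay nearer to Ct than the helicase genes did, while in DN the helicase median was the nearer one (0.00).

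Among the cyclins and Cdk1, the members past the limit in TS were one cyclin of S phase entry and one of mitosis. Ccnb1, the cyclin that activates Cdk1 at mitotic entry, read 7.24 in TS, 5.49 in DN and 6.14 in Ct. TS was 2.15-fold above Ct, the widest TS minus Ct difference of the 29 members (1.10). The DN reading was below the dim limit, so it gives bounds, at least 1.48-fold below Ct and at least 3.17-fold below TS, while the difference of the readings from Ct was -0.64. Ccne2, which acts with Cdk2 at S phase entry, read 6.69 in TS, 6.15 in DN and 6.05 in Ct, with TS 1.56-fold above Ct; this call was lost with each array centred (0.53) and with 32 added (0.46). Ccnb2 read 7.06 in TS, 6.33 in DN and 6.56 in Ct, short of the limit against Ct at 0.50, with DN 1.65-fold below TS. Its further probe set read 6.86 in TS, 6.33 in DN and 6.60 in Ct and gave 0.26 for TS minus Ct. Ccna2, the cyclin of S phase and G2, read 5.94 in TS, 5.38 in DN and 5.71 in Ct, and Cdk1, the kinase itself, read 5.68 in TS, 5.20 in DN and 5.30 in Ct. Ccna2 was dim in DN, and Cdk1 was above the dim limit in TS alone. The TS reading was the highest for all 5 genes of the group, and the group's median difference from Ct was 0.50 in TS and -0.23 in DN.

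The mitotic kinases and chromosomal passengers showed the smallest TS minus Ct median of the 6 groups (0.11), and no member passed the limit against Ct. That median was the difference of Birc5, which was dim in every pool, so this rank rests on dim readings. Aurkb, the kinase of the chromosomal passenger complex, read 6.88 in TS, 5.87 in DN and 6.33 in Ct, which is 0.55 from Ct in TS and -0.46 in DN. Its DN level was 2.01-fold below TS. Plk1, a kinase of mitotic entry and exit, read 6.23 in TS, 6.01 in DN and 6.04 in Ct. Aurka, the centrosome kinase, read 5.81 in each pool. Birc5 (survivin) and Cdca8 (borealin), partners of Aurkb in the complex, were at or below the dim limit in every pool, at 5.52 and 5.50 in TS, 5.42 and 5.48 in DN, and 5.42 and 5.48 in Ct. These partners allow no fold. Incenp, the scaffold of the complex, named after its value was seen and no member of the 29, was above the limit in every pool, at 6.66 in TS, 6.34 in DN and 6.34 in Ct (1.25-fold for TS over Ct).

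Checkpoint and anaphase genes had 2 members past the limit in TS and 1 in DN. Cdc20, which turns on the anaphase-promoting complex, read 7.45 in TS, 6.09 in DN and 6.65 in Ct, and TS was 1.75-fold above Ct while DN was 0.56 below it on the log2 scale. Bub1, a kinase of the checkpoint at kinetochores, read 7.82 in TS, 6.41 in DN and 7.15 in Ct. Bub1 was past the limit on both sides of Ct, 1.60-fold higher in TS and 1.66-fold lower in DN, and DN was 2.66-fold below TS. The TS call was lost by a small margin with each array centred (0.56), with quantile normalization (0.58) and with 32 added (0.57). Mad2l1, a checkpoint inhibitor of Cdc20, read 6.87 in TS, 6.36 in DN and 6.33 in Ct, so here DN and Ct were level (0.03) and TS was 0.54 above Ct. Ube2c, the ubiquitin-conjugating enzyme of the anaphase-promoting complex, read 7.88 in TS, 7.60 in DN and 7.63 in Ct. Bub1b and Ttk, 2 further checkpoint kinases, were dim in all pools, with readings of 5.07 and 5.07 in TS, 4.52 and 4.46 in DN, and 4.71 and 4.49 in Ct. Over the group, the median difference from Ct was 0.56 in TS and -0.12 in DN.

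In the group of spindle and mitotic chromosome genes no member passed the limit in TS and 1 did in DN. Top2a, the topoisomerase that untangles replicated chromosomes, read 7.77 in TS, 6.74 in DN and 7.19 in Ct, a difference from Ct of 0.58 in TS and -0.45 in DN, and DN was 2.04-fold below TS. Prc1, which bundles microtubules of the central spindle, read 6.83 in TS, 5.93 in DN and 6.73 in Ct. Prc1 thus differed from the rest in shape, with TS near Ct (0.10) and DN 1.74-fold lower than Ct. Tpx2, a spindle assembly factor that binds Aurora A, read 7.02 in TS, 6.57 in DN and 6.57 in Ct. Kif11, the motor that separates the spindle poles, read 6.06 in TS, 5.62 in DN and 5.66 in Ct, and Nusap1, which binds spindle microtubules, read 6.43, 6.20 and 6.30 in the same order of pools. The median of this group from Ct was 0.40 in TS and -0.10 in DN.

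Some of the 29 members shared shapes that cut across the functional groups. The limits of these shapes were drawn after the values were seen, and most members were not placed in them. Among members above the dim limit in every pool, Mcm2, Mcm5, Mcm6, Mad2l1 and Tpx2 had a DN level at most 0.03 from Ct and a TS level 0.46 or more above it; for Mcm5 and Tpx2 the DN and Ct values were equal to the last digit. For Rrm2, Ccnb1, Aurkb, Bub1, Cdc20 and Top2a, Ccnb1 being dim in DN, the DN level lay below Ct by 0.45 or more while TS lay above it by 0.55 or more. Summed on the linear scale, the members reached 1.44 times the Ct sum in TS and 0.961 times in DN. Such sums weight bright genes most. Pcna and Mcm7, the brightest members by mean level, read above Ct in DN (0.16 and 0.49), whereas 18 of the 29 read lower. By group, the licensing sum was 1.82 times Ct in TS and 1.19 times in DN, the cyclin and Cdk1 sum 1.55 and 0.853 times, the checkpoint sum 1.44 and 0.831 times, the spindle sum 1.29 and 0.810 times, the nucleotide sum 1.26 and 1.00 times, and the kinase sum 1.17 and 0.919 times. At 1.19 times Ct, the licensing sum was the highest of the 6 in DN, and Mcm7 was the licensing gene with the widest DN difference.

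Other genes of the same pathways, listed by function, were set beside the shares of all named genes (in TS 4.64% higher and 1.95% lower, in DN 3.55% higher and 3.91% lower). The lists were not recounted with each array centred, which takes 0.12 off every TS minus Ct difference. Of 52 measured genes of mitosis beyond the members, 12 read at least 1.5-fold higher in TS (23.1%) and 0 lower, with a median of 0.30, and in DN 1 was higher and 2 were lower than in Ct, with a median of 0.00. For 4 of the 12 the Ct reading was dim, which leaves 8 of 31 with both readings above the dim limit; of the 4, Kif4a alone, named after its value was seen, kept a bound past 1.5-fold (at least 1.52-fold). Above the dim limit were 39 of the 52 in TS, 28 in DN and 31 in Ct. Of the 12, Mybl2, Ect2, Nek2, Spc25, Pbk, Pttg1, Ska1 and Racgap1 gave 0.59 to 0.66 in TS. Those readings would lose the call with each array centred, while those of Ndc80, Nuf2, Fbxo5 and Kif4a would keep it. Ect2, Nek2, Spc25, Pttg1, Ska1 and Racgap1 were named after their values were seen. The one higher in DN was the kinetochore protein Zwint (0.62), and one of the lower ones was the mitotic kinase Pbk (at least 1.27-fold lower as a bound, its DN reading being dim); both were named after their values were seen. Ndc80, a kinetochore protein that holds microtubules, read 7.35 in TS, 5.79 in DN and 6.10 in Ct (from Ct, 1.25 in TS and -0.32 in DN). Its partner Nuf2 read 6.13 in TS and a dim 5.35 in Ct, which bounds TS at no less than 1.41-fold above Ct, short of the limit, and Fbxo5, an inhibitor of the anaphase-promoting complex, gave 0.74. Cdc25b, a phosphatase that activates Cdk1 and the other gene lower in DN, lay below Ct in both pools, at -0.32 in TS and -0.80 in DN. The transcription factor Mybl2 (B-Myb) read 6.79 in TS, 6.21 in DN and 6.20 in Ct, just past the limit in TS at 0.59, whereas Foxm1 read 6.47 in TS, 6.32 in DN and 6.32 in Ct.

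Of 39 measured genes of origin firing and the replisome, 6 read at least 1.5-fold higher in TS (15.4%) and 0 lower, with a median of 0.26. With both readings above the dim limit, 5 of 34 read higher. In DN 0 were higher and 1 was lower, the polymerase alpha subunit Pola2 (-0.67), named after its value was seen. Rfc4, a subunit of the clamp loader, gave 0.89 in TS and 0.00 in DN, and Cdc45, a partner of the Mcm helicase, gave 0.84 and 0.00. Gins1, of the same helicase complex, had a dim Ct reading and was at least 1.28-fold above it in TS as a bound, short of the limit, and Prim1, the primase, gave 0.79 in TS and 0.47 in DN. Chromatin assembly and DNA methylation had 3 of 14 higher in TS (21.4%) and a median of 0.38, with 0 past the limit in DN. These 3 were the histone methyltransferase Ezh2 (0.94), Uhrf1, which guides maintenance DNA methylation (0.90), and the histone chaperone Asf1b (0.68). Further nucleotide supply had 1 of 19 higher in TS (5.26%, near the share of all named genes), the pyrimidine synthesis enzyme Cad (0.67), and a median of 0.06. In DN, 0 of the 19 were past the limit on either side. With each array centred, Asf1b and Cad would lose the call in TS. So would Cdt1 (0.65) and Rfc5 (0.66) of the replication genes, both named after their values were seen. Set against TS, DN read at least 1.5-fold lower for 12 of the 52 mitosis genes (7 of them from a dim DN reading), 4 of the 39 replication genes (1 of them dim in DN), 3 of the 14 chromatin genes and 0 of the 19 nucleotide genes, and higher for 0 in each list.

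**Figure D4:**
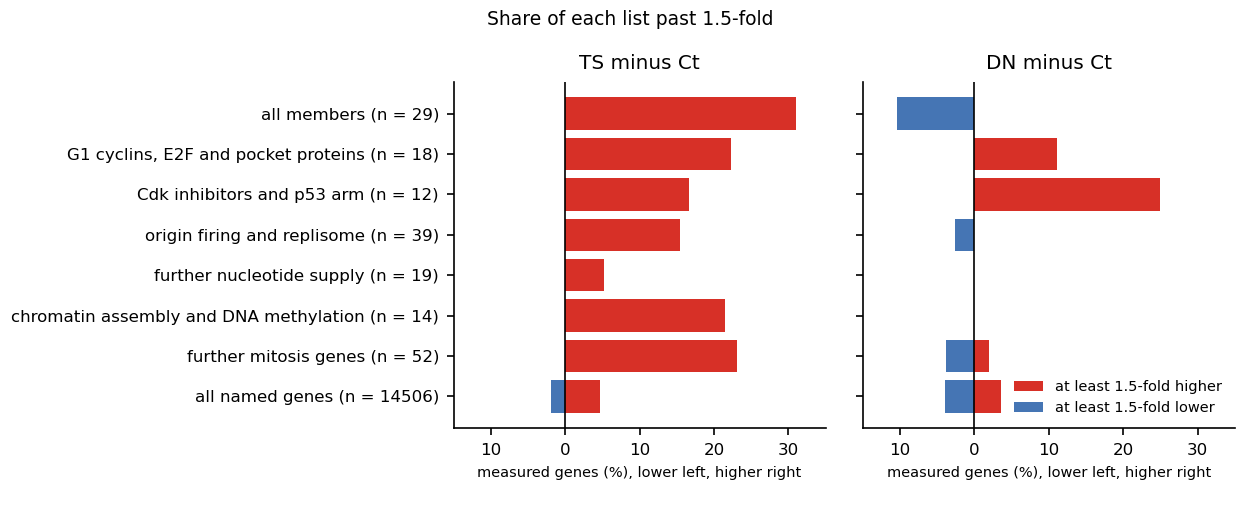
Share of the measured genes of each list (%, horizontal axis) at least 1.5-fold lower (left of 0) and at least 1.5-fold higher (right of 0), for TS minus Ct and DN minus Ct, with all named genes in the bottom row. The members reach 31.0% higher in TS, and in DN 10.3% of them are lower (Ccnb1 from a dim reading), while all named genes reach 4.64% higher in TS and 3.91% lower in DN. Shares are without centring of the arrays, and the lists beyond the members were not recounted with it.

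Most regulators of G1 and Cdk inhibitors stayed within 1.5-fold of Ct in both pools, while a few differed widely. Of 18 measured genes among G1 cyclins, E2F and pocket proteins, 4 were at least 1.5-fold higher in TS (22.2%, against 4.64% of all named genes) and 2 in DN (11.1%, against 3.55%), and 0 were lower in either. E2f8, a repressive E2F that is itself made in S phase, read 7.84 in TS, 6.24 in DN and 5.99 in Ct, a difference of 1.85 in TS. Myc, a factor of growth and proliferation, gave 1.07 in TS and 0.32 in DN, and Lin54, a subunit of MuvB named after its value was seen, gave 0.71 in TS. The DN pool was the higher one for Cdc25a, a phosphatase of S phase entry (0.73 in TS and 1.60 in DN), and for Rb1, the retinoblastoma protein that restrains E2F (0.41 and 1.02). Ccnd1, the D cyclin that responds to growth factors, read 9.22 in TS, 8.81 in DN and 9.31 in Ct, and E2f1 read 5.71 in each pool. Of 12 Cdk inhibitors and genes of the p53 arm, 2 were at least 1.5-fold higher in TS (16.7%) and 3 in DN (25.0%), with medians of 0.07 and 0.04. Cdkn1a, which encodes the Cdk inhibitor p21, read 10.71 in TS, 12.45 in DN and 8.50 in Ct, and Gadd45a, a growth arrest gene, gave 1.35 in TS and 3.15 in DN. Cdkn2b, the inhibitor p15, was past the limit in DN alone (0.77) and equal in TS and Ct. The p21 transcript was thus above Ct in both pools and highest in DN, where most members were at or below Ct.

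Transcripts of other cells differed between the pools alongside the members. Of all named genes, 4.64% were at least 1.5-fold higher and 1.95% lower in TS, and 3.55% higher and 3.91% lower in DN. The marker lists were not recounted with each array centred. All 15 measured macrophage markers were above the dim limit in each pool, 4 were at least 1.5-fold higher in TS and 0 in DN, and their median was 0.48 in TS and 0.13 in DN. Their summed linear level was 11204 in TS, 9036 in DN and 8224 in Ct, or 1.36 times Ct in TS and 1.10 times in DN. The scavenger receptor Cd163 read 9.72 in TS, 8.86 in DN and 8.55 in Ct, the mannose receptor Mrc1 gave 0.95 in TS, the complement gene C1qb 0.68, and Adgre1 (F4/80), named after its value was seen, 0.60. With each array centred, C1qb and Adgre1 would lose the call, and Cd163 and Mrc1 would keep it. Of 11 satellite cell and myoblast markers, 4 were at least 1.5-fold higher and 1 lower in TS, and 4 were higher and 0 lower in DN, with medians of 0.00. Their sum was 16110 in TS, 14661 in DN and 13027 in Ct, or 1.24 times Ct in TS and 1.13 times in DN, but Des, a gene that fibres also use, made up 57.3% of it in TS, 42.7% in DN and 55.6% in Ct. Without Des the sum was 1.19 times Ct in TS and 1.45 times in DN. The 4 higher in both pools were Myod1, Myf5 (0.82 in TS and 2.00 in DN), and, named after their values were seen, the laminin receptor subunit Itga7 (0.81 and 0.64) and the growth factor receptor Met (0.86 and 0.71), and the lower one in TS was Chodl (-0.90). Myod1, the myogenic factor of activated satellite cells and of denervated fibres, read 9.09 in TS, 10.62 in DN and 7.18 in Ct, so it was highest in the pool where the members were lowest. Of 5 erythroid transcripts, 0 passed the limit against Ct in TS or DN, and their median was 0.00 in TS and -0.36 in DN. They summed to 3208 in TS, 1765 in DN and 2234 in Ct, or 1.44 times Ct in TS and 0.790 times in DN; Hbb read 11.50 in TS, 10.58 in DN and 10.94 in Ct, Alas2 read 7.53, 6.65 and 7.08 in the same order of pools, and Slc4a1 and Ahsp were dim in all 3. Hbb made up 90.1% of the sum in TS, 87.0% in DN and 88.0% in Ct, and without it the sum was 1.18 times Ct in TS and 0.854 times in DN. Adipocyte markers had 3 of 7 at least 1.5-fold higher in both pools, with a median of 0.52 in TS and 0.48 in DN. The hormone gene Adipoq was 3.08-fold above Ct in TS and 4.29-fold in DN, Cfd 2.68-fold and 2.50-fold, and the lipid droplet gene Cidec 2.23-fold and 2.50-fold. The list's sum was 1.16 times Ct in TS and 1.37 times in DN, or 2.06 and 2.19 times without Fabp4, its brightest gene. The part of macrophages, satellite cells, erythroid cells or adipocytes in the members' differences was not tested.

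Most other cell types had summed levels nearer to Ct in TS, or below it. The 11 lymphocyte markers had 0 genes past the limit in either pool, sums of 1.08 times Ct in TS and 1.07 times in DN, and 6 genes (Cd3e, Cd3d, Cd2, Cd8a, Cd8b and Ms4a1) at or below the dim limit. Neutrophil and mast cell markers summed to 0.883 times Ct in TS and 0.866 times in DN, with 0 of 9 past the limit in either pool. Fibroblast markers summed to 0.964 and 0.996 times. Of these 11, Pdgfra alone passed the limit, higher at 0.81 in TS, and would keep the call with each array centred. Cd34 (-0.55 in TS) would pass it on the lower side with centring. Endothelial markers summed to 0.909 times Ct in TS and 0.771 times in DN, and smooth muscle and pericyte markers to 0.950 and 0.873 times. Of 10 endothelial markers, 1 was at least 1.5-fold lower in TS (Kdr, -0.73) and 2 in DN (Kdr, -0.87, and Flt1, -0.70). Of 9 smooth muscle and pericyte markers, 0 were lower in TS and 3 in DN (Kcnj8, -0.87, Cspg4, -0.83, and Tagln, -0.60). In both lists 0 were higher. Schwann cell and nerve markers summed to 1.22 times Ct in TS and 1.01 times in DN, and 1 of 7 passed the limit against Ct (Mal, 0.81 in TS). Slow fibre markers summed to 0.802 times Ct in TS and 0.728 times in DN, with 1 of 10 at least 1.5-fold lower in TS (the light chain Myl2, -0.94) and 4 of 10 in DN (Myl2, Myl3, Atp2a2 and, named after its value was seen, Tpm3). Over all named genes these shares were 4.64% higher and 1.95% lower in TS, and 3.55% higher and 3.91% lower in DN. Myl3 gave -0.51 in TS and would pass the limit there with each array centred. The part of these cell types in the members' differences was not tested.

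**Figure D5:**
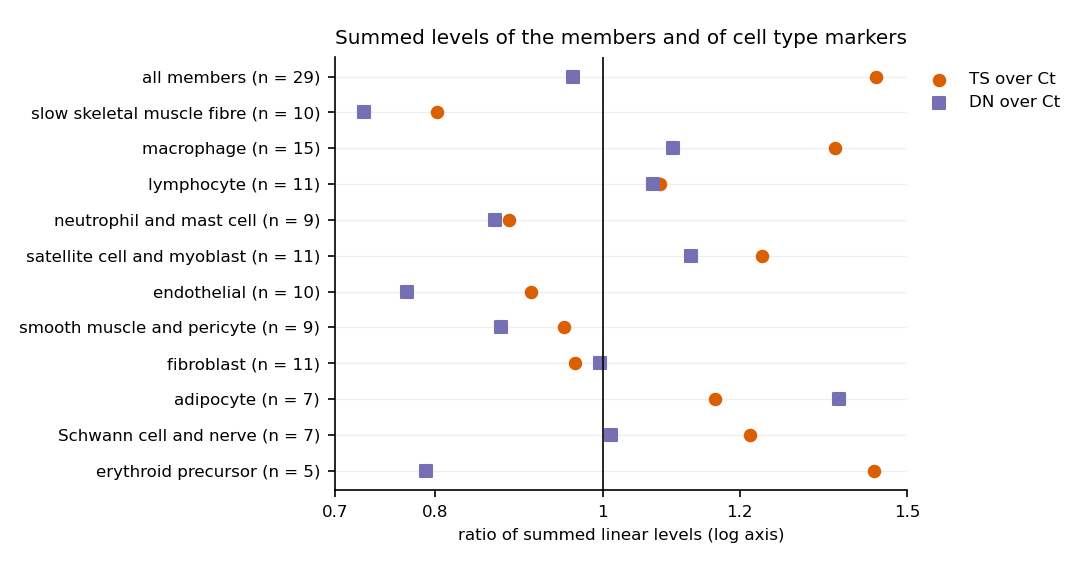
Summed linear level of the members and of each marker list relative to Ct (ratio, log axis), for TS over Ct and DN over Ct, with n the number of measured genes. The members lie at 1.44 in TS and 0.961 in DN, and their brightest genes, Pcna and Mcm7, read above Ct in DN. Macrophage markers lie at 1.36 and 1.10, and erythroid markers lie at 1.44 and 0.790, with Hbb making up 87.0% or more of their sum in each pool.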

How the data were processed

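Soleus RNA, pooled from 6 rats per group, was hybridised to Rat Gene 1.0 ST arrays (Affymetrix), 1 for each of the 3 groups; the design text counts 2 arrays, but 3 samples were used. The deposited values were made with Expression Console by RMA in a core-exon analysis, per the submitters' processing notes, and were read as log2 values, a base the labels do not state. Its version, the annotation and the build were not given in the sources used here. Of 29170 probe sets, 15310 carried 1 symbol in the platform annotation, 323 several and 13537 none, and those with 1 gave 14506 genes. For 15279 of these 15310 probe sets the entrez identifier was found in a GRCr8 table, used for names and promoters.

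Differences of log2 values were counted at 1.5-fold without a filter on level. Shares over all named genes were set beside the counts and are not a test. With 1 array per group they measure no spread between animals or arrays. The counting code was run on simulated arrays with set changes wider than the limit. Those arrays held no equal values and no shift between arrays, so that run checks the code and not the calls made here. A reading at or below the 95th percentile of 53 olfactory receptor genes on its array was called dim; against 1 such reading the fold is a bound from that percentile, and between 2 none is given. The members, lists, limits and motifs were chosen with earlier results of these data known. Text names followed a rule: all members, up to 4 genes of each pathway list and up to 3 of each marker list with the largest differences, and always Cdkn1a, Ccnd1, E2f1, Foxm1 and Mybl2. Exceptions are stated where they occur, except that dim markers and the brightest gene of a marker list were also named.

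Alternatives were centring, quantile normalization, a loess trend (span 0.3), 32 added on the linear scale, filters at the 30th and 50th percentile, averaging the probe sets of a gene, leaving out equal values, a 2-fold limit and, chosen after seeing the data, keeping genes above the dim limit on both arrays. The tools were matplotlib 3.10.9, statsmodels 0.14.6, scipy 1.17.1, pandas 2.3.3 and numpy 2.4.6 under Python 3.11.15.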

Additional observations from a re-analysis of the deposited data

Results flagged for a closer look

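The readings of Ccnb1 and Bub1 lay on opposite sides of Ct in the TS and DN pools. Ccnb1 was 1.10 in TS minus Ct and -0.64 in DN minus Ct; its DN reading was below the dim limit, and as a bound it was at least 1.48-fold below Ct, short of the 1.5-fold limit. Bub1 was 0.68 in TS minus Ct and -0.73 in DN minus Ct (log2). With 1 array per group the difference between the 2 effects was not tested, and both share the Ct array.

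A further Rrm2 probe set, which the counts did not use, gave 1.05 for TS minus Ct, beside 1.09 from the probe set that was used, and -0.41 for DN minus Ct, beside -0.50. Probe sets of 1 gene on the same arrays are not replicates of a condition.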

How the results depend on the processing

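No paired analysis was possible because each group had 1 array, and for the same reason no replicate could be left out. Over 9 counts and medians and 10 alternatives, 75 of 87 values stayed close to those reported. The count of members higher in TS than in Ct (9) was 2 with a filter at the 50th percentile, which 5 members passed, and 4 at a 2-fold limit; their median (0.46) was 0.34 with each array centred, 0.27 with 32 added on the linear scale and 0.25 with that filter. The count lower in DN than in Ct (3) was 0 with 32 added, with the 50th percentile filter and at 2-fold. Against TS, the count lower in DN (12) was 1 with that filter, and the median (-0.54) was -0.43 centred, -0.34 with 32 added and -0.30 with the filter. The cause of these shifts was not tested, except that a stricter filter or limit counts fewer genes. With each array centred, 7 members were higher in TS, and Ccne2 (0.53) and Bub1 (0.56) lost the call. Of 664 values of single members, 644 kept their call and did not change to the opposite sign, 11 lost the 1.5-fold call, 0 gained it and 9 uncalled ones changed sign. Sizes could still differ, as for Ttk in TS minus Ct, at 0.58 and, with 32 added, 0.27. The filters on level or dimness and the leaving out of equal values cannot change a member's difference. Much of the 644 was therefore fixed in advance. Low signal limits 7 members, which had at least 1 dim reading.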
